A study of Macaca mulatta with 31 samples.

Results

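The 100 genes described here varied widely between single rhesus macaque blastocysts after a standard chow diet (SCD) and were low in the SCD blastocysts that were high in MTARC2 (ENSMMUG00000057631). They were chosen by measured values, namely the level of each gene in the blastocysts, the spread over the SCD blastocysts and the Spearman correlation with MTARC2 over the same SCD blastocysts. Of the 35395 genes in the table, 8053 met the rules on identifier and level, the 500 with the highest SD of log2(CPM + 1) after SCD were kept, and the 100 with the lowest correlation with MTARC2 were taken. CPM is the count of a gene divided by the total count of its blastocyst and multiplied by 1000000. MTARC2 encodes mitochondrial amidoxime reducing component 2, a molybdenum-containing enzyme of the outer mitochondrial membrane.

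The study asked whether a Western-style diet (WSD) of the mother alters the ovarian follicle and the embryo before implantation. Young adult females went through a first controlled ovarian stimulation (COS) cycle on SCD and a second one after months on WSD, and RNA of single blastocysts from in vitro fertilized oocytes was sequenced after removal of the zona pellucida. Data of 14 SCD blastocysts and 17 WSD blastocysts were used, and the total count per blastocyst was 11997445 to 27992541 after SCD and 10037852 to 29865336 after WSD. The label of each blastocyst also gives its cleavage history: 6 SCD and 9 WSD blastocysts came from fragmented embryos, 8 SCD and 8 WSD blastocysts from non-fragmented embryos, and none of them from an embryo with a multipolar division. Every SCD blastocyst came from the first COS cycle and every WSD blastocyst from the second, so diet and cycle cannot be told apart. The blastocysts share mothers within a diet, and some mothers gave blastocysts in both, but the labels do not say which, so the p-values below treat blastocysts as independent.

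A blastocyst consists of an outer epithelium, the trophectoderm, and an inner cell mass that separates into epiblast and hypoblast. As it expands, the trophectoderm pumps ions and fluid into the cavity, and hypoblast and trophectoderm lay down a basement membrane of laminin, collagen IV, nidogen and perlecan, which cells bind through integrins. Of the 100 genes, 15 were assigned to basement membrane and matrix, 7 to transcription factors, 16 to ligands, receptors and adhesion, 8 to transport across membranes, 11 to the cytoskeleton and its signalling, and 7 to metabolism and the lysosome. These role groups were made after the values had been seen, were not tested and are used only to order the genes, and 36 genes were given no role.

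After SCD, the Spearman correlation of the 100 genes with MTARC2 ran from -0.815 to -0.556 with a median of -0.646, and the median over all 500 variable genes was -0.270. These correlations chose the genes and are given as a description. At the limit of the rule, 4 genes tied at -0.556, of which OVOL1, CLPS and KCTD14 were inside by the order of their identifiers and FGF18 was the first outside, and the next gene was at -0.552. The 10 lowest correlations were those of MYO18A, SLC7A8, NUP210, HSPG2, WWC3, SLC39A14, CARD10, LRRC8E, ATP7B and ADAM19. The SD of log2(CPM + 1) of the 100 genes over the SCD blastocysts was 1.07 to 2.86, and the lowest among the 500 variable genes was 1.06, with the next gene outside also at 1.06.

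MTARC2 itself ranged from 5.18 to 438 CPM after SCD with a median of 16.7, and from 2.85 to 41.5 CPM after WSD with a median of 5.67. Its high values after SCD were in SCD 14 (438 CPM), SCD 15 (406), SCD 13 (358) and SCD 7 (234), and its other 10 SCD values were at or below 48.3. After WSD, only WSD 7 (41.5 CPM) and WSD 8 (26.6) were above 20 CPM, so the range over which the genes could be followed was much narrower. MTARC2 was picked for its large difference between the diets, and this difference is therefore not tested here.

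The level of the genes was summarised in each blastocyst by the median of their CPM values. This median ranged from 4.35 to 56.2 CPM after SCD (median of the 14 blastocysts 28.9) and from 1.61 to 26.5 CPM after WSD (median of the 17 blastocysts 5.93). The low SCD blastocysts were SCD 13 (4.35 CPM), SCD 7 (4.91), SCD 14 (4.96), SCD 3 (9.04) and SCD 15 (13.4), which include each of those high in MTARC2, and SCD 3, with 16.8 CPM of MTARC2, was the exception. The high WSD blastocysts were WSD 7 (26.5 CPM), WSD 17 (25.9), WSD 18 (24.4) and WSD 9 (19.7), and WSD 16 was the lowest. The diets overlapped, because these WSD blastocysts lay above the low SCD blastocysts. Between 26 and 97 of the 100 genes reached 10 CPM in an SCD blastocyst (median 80.5), and between 16 and 82 in a WSD blastocyst (median 34). In bulk RNA of a whole blastocyst, fewer cells of a type and less RNA per cell cannot be told apart.

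**Figure D1:**
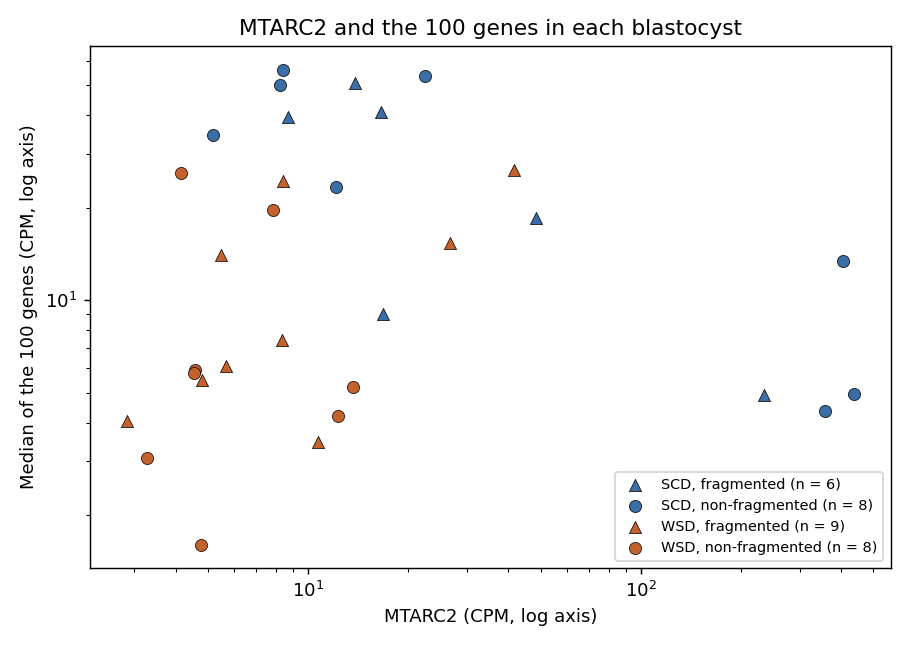
Median level of the 100 genes (CPM, log axis) against the level of MTARC2 (CPM, log axis), with 1 point per blastocyst, colored by diet and shaped by fragmentation class. SCD 7, SCD 13, SCD 14 and SCD 15 lie far to the right and low, and no WSD blastocyst exceeded 41.5 CPM of MTARC2.

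The relation with MTARC2 was then checked in the 17 WSD blastocysts, whose correlations the rule did not use. There, 11 of the 100 genes had a Spearman correlation with MTARC2 below 0 and 89 had one above 0, with a median of 0.237 and a range of -0.522 to 0.564. Among all 13183 other genes tested, 47.2% were below 0, and the median was 0.017. The genes that were low with high MTARC2 after SCD thus mostly had a positive correlation after WSD. Of the 100 variable genes with the highest correlation after SCD, 64 were below 0 with a median of -0.126. A further 300 variable genes are neither among these nor among the genes described here, and 299 of them were tested. Of these other 299 variable genes, 24.1% were below 0 with a median of 0.169. Whether the correlation differed between the diets was not tested, since the SCD values had chosen the genes.

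The positive direction in WSD rested in part on a few blastocysts. The number of genes below 0 was 27 without WSD 7, 18 without WSD 8, 17 without WSD 16 and 7 without WSD 1. With both WSD 7 and WSD 8 left out, it was 40, and the median correlation was 0.039. The number of detected genes, those with at least 1 count, also moved with both measures after WSD: its Spearman correlation was 0.674 with MTARC2 and 0.676 with the median level of the genes (n = 17 for each). When the correlations were made partial on the number of detected genes, 77 of the 100 genes were below 0, against 53.7% of all genes. The median was -0.186 over the 100 and -0.027 over all genes. The other 299 variable genes lay between these, with 177 below 0 and a median of -0.069.

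No gene passed the test for a relation with MTARC2 in the WSD blastocysts. With log2(CPM + 1) of MTARC2 as a continuous covariate in edgeR's quasi-likelihood F test, 0 of the 100 genes and 0 (0%) of 13183 genes had an adjusted p-value under 0.05, and the smallest adjusted p-value among the 100 was 0.903. At an unadjusted p-value under 0.05, 14 of the 100 had a positive slope, against 3.03% of all genes, and 1 had a negative slope, against 2.11% of all genes. The positive share was not particular to the 100, as 65 of the other 299 variable genes also had a positive slope at this threshold. DESeq2's Wald test called 0 of the 100 and 6 genes in all. The fitted slope was below 0 in 9 of the 100, with a median slope of 0.37 in log2 units per log2 unit of MTARC2, and in 63 once detected genes were added to the model.

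The 5 genes with the smallest p-values in this fit were SNTB1, PAK1, DAAM2, ALPP and NRG1, all with positive slopes. SNTB1, a syntrophin that links membrane proteins to the cytoskeleton, ranged from 0 to 57.0 CPM after WSD with a median of 3.55, and its slope was 1.10 ± 0.37 (SE; edgeR, p = 0.00748, adjusted p = 0.903). PAK1, a kinase downstream of Rac and Cdc42 that the study names from these samples, had WSD levels between 6.00 and 61.4 CPM (median 11.4) and a slope of 0.57 ± 0.21 (SE; edgeR, p = 0.0124, adjusted p = 0.903). WSD 7 was the highest WSD blastocyst in both genes, as it was for MTARC2. ALPP, the placental alkaline phosphatase, had a Pearson correlation of 0.598 on the log2 scale and a Spearman correlation of 0.539 with MTARC2 over the 17 WSD blastocysts. For DAAM2, a formin of Wnt signaling, the values were 0.594 and 0.39. These correlations are a description with no test of their own, because the 5 genes were picked for their small p-values in the same blastocysts. Without WSD 7 and WSD 8, the Pearson correlation fell to 0.039 for SNTB1 (0.537 with them), 0.098 for PAK1 (0.522), 0.162 for DAAM2, 0.318 for NRG1 (0.562) and 0.408 for ALPP, so the relations of SNTB1, PAK1 and DAAM2 rested on these blastocysts. Reads that align to several places were not counted, and ALPP has near-identical copies, so its level is uncertain.

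**Figure D2:**
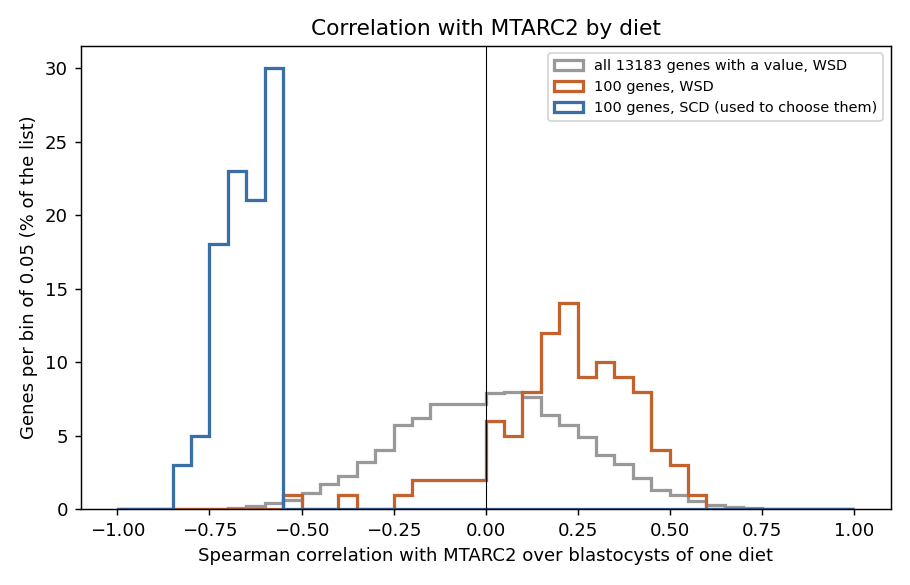
Distribution of the Spearman correlation with MTARC2 (x axis) for the 100 genes over the 14 SCD blastocysts, for the same genes over the 17 WSD blastocysts, and for all 13183 genes over the WSD blastocysts, as the percentage of each list per bin (y axis). The 100 genes lie between -0.815 and -0.556 after SCD, where the values chose them, and between -0.522 and 0.564 after WSD.

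The genes varied together in both diets. The mean Spearman correlation over pairs of the 100 genes was 0.682 over the SCD blastocysts, which had chosen them, and 0.456 over the WSD blastocysts. Over WSD, the mean over pairs was 0.009 for all genes tested, 0.145 for the other variable genes, and 0.119 for the 100 variable genes with the highest correlation with MTARC2. The median level of the genes after WSD was low in the blastocysts in which the median of those last 100 genes was high (Spearman correlation -0.703, Pearson correlation -0.763, n = 17). Among the 100 genes, 28 had their highest WSD value in WSD 17, 28 in WSD 18 and 18 in WSD 7, and 37 had their lowest WSD value in WSD 16. After SCD, 33 had their lowest value in SCD 13, 26 in SCD 7, 23 in SCD 14 and 13 in SCD 3. These correlations are a description, and the blastocysts also differed in the number of detected genes, as given above.

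Between the diets, 11 of the 100 genes were lower after WSD and 0 were higher (edgeR's quasi-likelihood F test, Benjamini-Hochberg adjusted p-value under 0.05 over 13184 genes), against 0.895% lower and 1.18% higher among all genes. At an unadjusted p-value under 0.05, 68 were lower, against 10.8% of all genes, and the log2 fold change was below 0 in 97 of the 100, against 51.8% of all genes. The median log2 fold change of the 100 was -1.24, and that of all genes was -0.02. This comparison is not independent of the choice, because the anchor gene MTARC2 came from it and because the rule used the SCD levels. All 100 passed the filter on low counts, but 94 would have passed on their SCD values alone and 80 on their WSD values alone. Of the 11 called genes, 9 would have passed on their WSD values alone, and ITGA5 and CSF2RB entered the test only through their SCD values. The level asked for by the rule, 10 CPM in 5 blastocysts, was reached by 94 of the 100 on SCD values alone and by 66 on WSD values alone. Of these 66, 63 had a log2 fold change below 0, with a median of -1.12, and 6 were called: WWC3, SLC39A14, FBLN2, SLCO2B1, CRYBG2 and PODXL. The other 34, of which all 34 were below 0 with a median of -1.50, needed SCD values to reach it, so their lower level after WSD is in part built in by the choice, and this holds for the other 5 called genes, NUP210, ITGA5, SLCO2A1, PLXNB1 and CSF2RB. The other 299 variable genes leaned the same way, less far: 8 were called lower and 2 higher after WSD, 106 were lower at an unadjusted p-value under 0.05, and 78.3% had a log2 fold change below 0, with a median of -0.75. The values of the diets overlapped in each of the 100 genes.

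The number of lower genes depended on the test, the filter, the model, single blastocysts and the number of detected genes. DESeq2's Wald test called 30 lower, edgeR with legacy = FALSE 37 and edgeR with no filter 29. Over all genes, lower calls rose as well, from 118 in the main fit to 477, 533 and 1777 (of 32887 genes) in these fits. With log10 library size as a covariate, 6 of the 100 were called, and 76 of all genes were called lower. With the replicate number as a block, 0 were called, at a median log2 fold change of -1.84. For edgeR fits without 1 blastocyst, the number is given next. It was 0 without SCD 9, SCD 10 or SCD 12, 1 without SCD 5, 3 without SCD 4, 5 without SCD 1 or WSD 1, 6 without WSD 3, WSD 5, WSD 11, WSD 14, WSD 15 or WSD 16, and 7 without WSD 2, WSD 4 or WSD 10. In the other direction, it was 18 without SCD 3, SCD 13, WSD 8 or WSD 9, 20 without WSD 18, 21 without WSD 17, 22 without SCD 7, 25 without SCD 14 and 26 without WSD 7. Lower calls over all genes moved as well. They were 28, 24 and 41 without SCD 9, SCD 10 and SCD 12, 315 without SCD 14 and 281 without WSD 7. In the 3 fits without 1 blastocyst that called 0 of the 100, the median log2 fold change of the 100 genes was -1.19, -1.22 and -1.17. The smallest adjusted p-value among the 100 was 0.0533, 0.0502 and 0.0535 by edgeR (without SCD 9, SCD 10 and SCD 12). Each of the 11 genes was called in 11 to 28 of the 31 fits without 1 blastocyst, and 0 were called in all of them. Blastocysts had 17211 to 25762 detected genes after SCD (median 20108.5) and 14428 to 20863 after WSD (median 17941), and once this number was added to the model 0 of the 100 genes were called and 0 of all genes, while 93 of the 100 had a log2 fold change below 0, with a median of -0.90.

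The role groups are read beside the 100 genes as a whole, of which 97 had a log2 fold change below 0, with a median of -1.24, and 11 were called. For basement membrane and matrix these values were 14 of 15, -1.65 and 1. FBLN2, the matrix glycoprotein fibulin 2, ranged from 2.58 to 84.9 CPM after SCD with a median of 39.3, and from 0.0595 to 26.0 CPM after WSD with a median of 6.62. All 17 WSD blastocysts lay below the SCD median of FBLN2, while the low SCD blastocysts, lowest in SCD 14, lay within the WSD range. Its log2 fold change was -2.13 ± 0.50 (SE; edgeR, adjusted p = 0.0275), a 4.37-fold lower level after WSD, and it was called in 28 of the 31 fits without 1 blastocyst. COL4A1 and COL4A2 encode the chains that assemble into the collagen IV network. COL4A1 ranged from 5.92 to 298 CPM after SCD (median 80.8) and from 0.200 to 248 CPM after WSD (median 13.3), and COL4A2 from 20.2 to 600 CPM after SCD (median 212) and from 5.47 to 343 CPM after WSD (median 37.3). Both were highest after WSD in WSD 18 and lowest after SCD in SCD 14, and neither passed the test, with log2 fold changes of -1.74 ± 0.68 (SE; edgeR, adjusted p = 0.133) and -1.70 ± 0.55 (SE; edgeR, adjusted p = 0.0767). The study reports both genes as significantly reduced after WSD, which was not reproduced here. As it used these samples, their direction is not independent evidence.

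Of the other matrix genes, HSPG2, which encodes the basement membrane proteoglycan perlecan, ranged from 6.36 to 88.1 CPM after SCD (median 38.6) and from 0.892 to 36.7 CPM after WSD (median 13.1). All 17 WSD values lay below the SCD median, and the log2 fold change of -1.40 ± 0.44 did not pass (SE; edgeR, adjusted p = 0.0749). NID2, one of the nidogens that join laminin to collagen IV, ranged from 9.18 to 1135 CPM after SCD (median 510) and from 6.78 to 1189 CPM after WSD (median 61.8). The highest NID2 value of the 31 blastocysts was therefore a WSD value, in WSD 18, and the log2 fold change was -1.49 ± 0.65 (SE; edgeR, adjusted p = 0.178). COL1A2, a chain of fibrillar collagen I, had medians of 98.8 CPM after SCD and 1.34 CPM after WSD and the lowest log2 fold change of the 100 genes, -3.02 ± 0.90, which did not pass (SE; edgeR, adjusted p = 0.0603). SERPINH1, the collagen chaperone of the endoplasmic reticulum, differed less, with medians of 326 and 152 CPM and a log2 fold change of -0.58 ± 0.37 (SE; edgeR, adjusted p = 0.366). COL6A1, a chain of collagen VI, was the exception in this group, with medians of 19.3 CPM in both diets and a log2 fold change of 0.12, which was -0.06 without WSD 2.

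**Figure D3:**
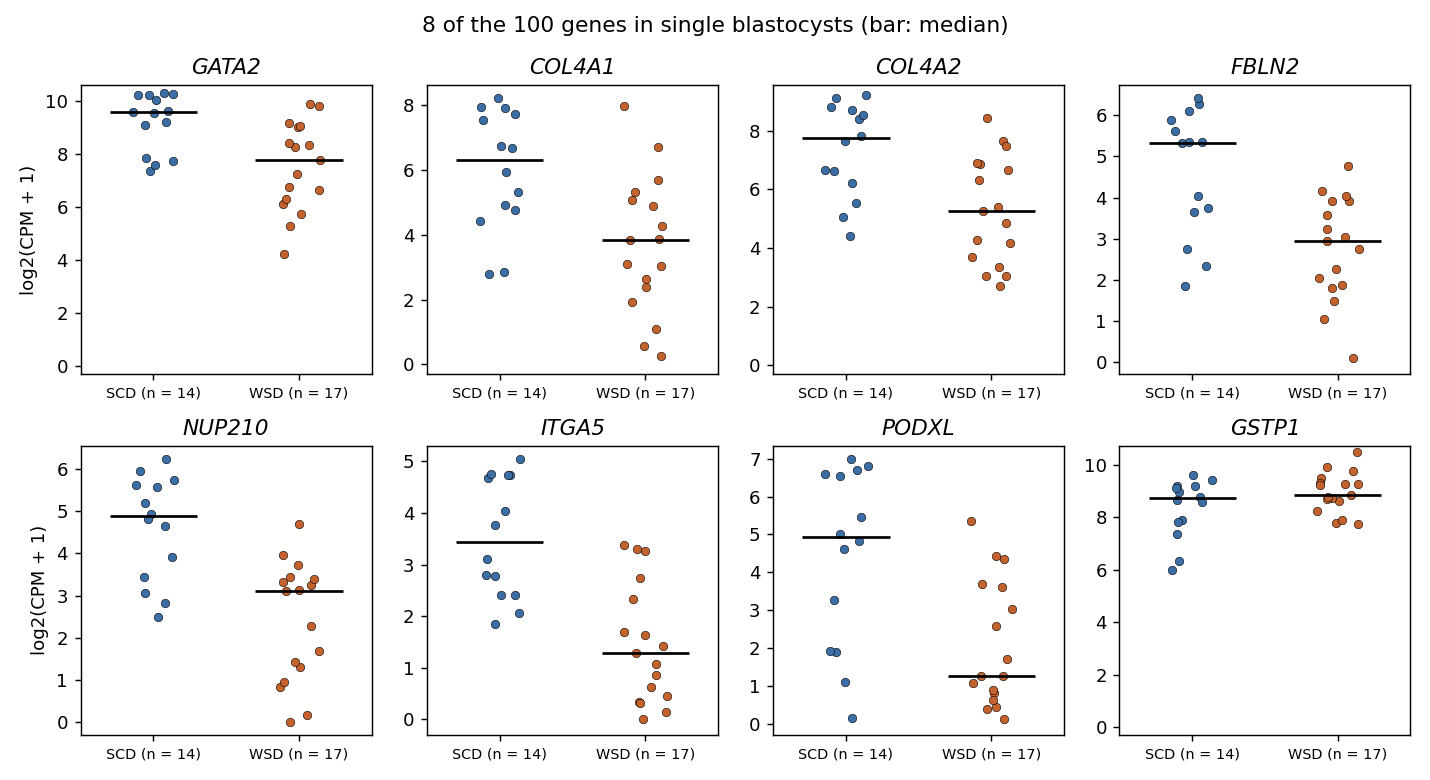
Level of 8 of the 100 genes as log2(CPM + 1) (y axis) in the 14 SCD and 17 WSD blastocysts (x axis), with 1 point per blastocyst and a bar at the median. FBLN2, NUP210 and ITGA5 had all 17 WSD values below the SCD median, and GSTP1 had a higher median after WSD.

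The 7 transcription factors were close to the 100 as a whole, with 7 of 7 below 0 and a median of -1.22, and 0 were called. GATA2, a regulator of trophectoderm and placental genes, ranged from 161 to 1249 CPM after SCD (median 751) and from 17.7 to 935 CPM after WSD (median 218). The WSD blastocysts reached far lower, but WSD 7, the highest of them, lay above the SCD median, and the log2 fold change was -1.23 ± 0.44 (SE; edgeR, adjusted p = 0.104). GATA4, a factor of hypoblast and endoderm, had medians of 41.7 CPM after SCD and 3.05 CPM after WSD, and its highest value, 74.9 CPM, was in WSD 9. FOXA2, another endoderm factor, had medians of 9.97 and 0.124 CPM, and its highest value, 28.9 CPM, was in WSD 18. Among the WSD blastocysts, only WSD 6, WSD 7, WSD 8, WSD 9 and WSD 18 had 1 CPM or more of FOXA2, and only WSD 6, WSD 9 and WSD 18 lay above the SCD median of GATA4. The log2 fold changes of GATA4 and FOXA2, -1.12 ± 0.71 (SE; edgeR, adjusted p = 0.356) and -0.89 ± 0.94 (SE; edgeR, adjusted p = 0.604), did not pass. The study reports FOXA2 as significantly reduced after WSD in these samples, which was not reproduced here.

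Like 97 of the 100 genes, the 16 ligands, receptors and adhesion genes had a log2 fold change below 0, with a median of -1.01, and 4 were called: ITGA5, PLXNB1, CSF2RB and PODXL. ITGA5, the α5 integrin subunit of the fibronectin receptor, ranged from 2.61 to 32.1 CPM after SCD (median 10.1) and from 0 to 9.39 CPM after WSD (median 1.43). All 17 WSD values lay below the SCD median, with a log2 fold change of -2.34 ± 0.57 (SE; edgeR, adjusted p = 0.0306). No WSD blastocyst reached 10 CPM of ITGA5, so it met both the rule and the filter through SCD, where it is high, and its call is not free of the choice. PODXL, an anti-adhesive sialomucin of apical membranes, ranged from 0.107 to 127 CPM after SCD (median 29.3) and from 0.0770 to 39.8 CPM after WSD (median 1.40). SCD 7 had the lowest SCD value of PODXL and lay within the range of the low WSD blastocysts. Its 6.52-fold lower level was the largest called difference among the 100 genes, with a log2 fold change of -2.70 ± 0.75 at the threshold (SE; edgeR, adjusted p = 0.04996), and it was called in 11 of the 31 fits without 1 blastocyst. CSF2RB, the signaling subunit shared by the receptors of GM-CSF and related cytokines, ranged from 2.17 to 41.2 CPM after SCD (median 10.8) and from 0 to 17.2 CPM after WSD (median 1.67), with a log2 fold change of -2.52 ± 0.68 (SE; edgeR, adjusted p = 0.0449). CSF2RB also met the rule and the filter only with its SCD values, as 10 WSD blastocysts reached the level of the filter where 13 are needed and 1 reached 10 CPM, so the same limit holds. PLXNB1, a semaphorin receptor, ranged from 2.58 to 41.8 CPM after SCD (median 26.2) and from 0.668 to 21.4 CPM after WSD (median 6.86), with a log2 fold change of -1.55 ± 0.38 (SE; edgeR, adjusted p = 0.0306). Only 4 WSD blastocysts reached 10 CPM of PLXNB1, so it too was chosen with the help of its SCD values. Of the WSD blastocysts, 16 of 17 lay below the SCD median of CSF2RB, with WSD 17 above it, and all 17 below that of PLXNB1. For PTPRF, a receptor tyrosine phosphatase of cell contacts, the medians were 296 and 162 CPM and the difference did not pass (edgeR, log2 fold change -0.62 ± 0.33, SE, adjusted p = 0.259). NRG1, a ligand of ErbB receptors, had a log2 fold change of -0.14, whose sign changed without SCD 8 (0.09). FGFR1, a receptor of fibroblast growth factors, had medians of 241 and 106 CPM, with all 17 WSD values below the SCD median, and did not pass (edgeR, adjusted p = 0.0588). The study reports FGFR1 as significantly reduced after WSD in these samples.

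The 8 transport genes were likewise below 0, with a median of -1.47 beside -1.24 for all 100, and 3 were called: SLC39A14, SLCO2A1 and SLCO2B1. SLC39A14, an importer of zinc, iron and manganese, ranged from 15.6 to 297 CPM after SCD (median 111) and from 6.36 to 134 CPM after WSD (median 28.0). Among the WSD blastocysts, 16 of 17 lay below the SCD median, with WSD 17 above it, and the level was 3.0-fold lower, with a log2 fold change of -1.58 ± 0.39 (SE; edgeR, adjusted p = 0.0306). SLCO2A1, the prostaglandin transporter, ranged from 1.96 to 61.7 CPM after SCD (median 7.29) and from 0 to 10.3 CPM after WSD (median 1.37). Here 15 of the 17 WSD values lay below the SCD median, with a log2 fold change of -2.33 ± 0.61 (SE; edgeR, adjusted p = 0.0389), and only 1 WSD blastocyst reached 10 CPM, so SLCO2A1 was chosen with the help of its SCD values. SLCO2B1, a transporter of organic anions such as steroid sulfates, ranged from 41.6 to 386 CPM after SCD (median 227) and from 9.51 to 210 CPM after WSD (median 50.1), with a log2 fold change of -1.52 ± 0.41 (SE; edgeR, adjusted p = 0.0425). All 17 WSD values of SLCO2B1 lay below the SCD median. SLC7A8, which exchanges neutral amino acids, ranged from 21.2 to 534 CPM after SCD (median 266) and from 0.178 to 285 CPM after WSD (median 38.1), and did not pass (edgeR, log2 fold change -1.64 ± 0.61, SE, adjusted p = 0.118). The volume-regulated anion channel subunit LRRC8E and the copper pump ATP7B had log2 fold changes of -1.42 ± 0.53 and -1.11 ± 0.48, which did not pass either (SE; edgeR, adjusted p = 0.120 and 0.171).

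Outside the role groups, NUP210, WWC3 and CRYBG2 were called. NUP210, a membrane glycoprotein of the nuclear pore, ranged from 4.67 to 74.4 CPM after SCD (median 28.4) and from 0 to 24.9 CPM after WSD (median 7.62). Its WSD values all lay below the SCD median, and the level was 4.63-fold lower, with a log2 fold change of -2.21 ± 0.54 (SE; edgeR, adjusted p = 0.0305). Only 3 WSD blastocysts reached 10 CPM of NUP210, so it was chosen with the help of its SCD values and its call is not free of the choice. WWC3, a scaffold of the Hippo pathway, ranged from 13.1 to 162 CPM after SCD (median 90.6) and from 0.773 to 58.4 CPM after WSD (median 24.9). All 17 WSD values of WWC3 lay below the SCD median, and SCD 7, the lowest SCD blastocyst, lay within the WSD range. The log2 fold change of WWC3 was -1.74 ± 0.43 (SE; edgeR, adjusted p = 0.0306), and that of CRYBG2, with medians of 42.7 and 3.08 CPM, was -2.02 ± 0.55 (SE; edgeR, adjusted p = 0.0450). Of the 11 cytoskeletal genes, 0 were called, and 11 were below 0, as were 97 of the 100. The unconventional myosin MYO18A, which tied with SLC7A8 for the lowest correlation with MTARC2 after SCD, had medians of 34.1 and 14.0 CPM and did not pass (edgeR, log2 fold change -1.19 ± 0.38, SE, adjusted p = 0.0761).

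Of the 7 metabolic and lysosomal genes, 6 had a log2 fold change below 0, beside 97 of the 100, and 0 were called. GSTP1, a glutathione transferase that conjugates electrophilic compounds, ranged from 61.8 to 783 CPM after SCD (median 418) and from 211 to 1441 CPM after WSD (median 458). The lowest values of GSTP1 were in SCD blastocysts, and its log2 fold change of 0.50 ± 0.32 did not pass (SE; edgeR, adjusted p = 0.356). KCTD14, the last gene inside the rule, had the highest log2 fold change of the 100, with medians of 6.72 and 8.84 CPM. Its value of 1.05 ± 0.47 did not pass either (SE; edgeR, adjusted p = 0.191). KCTD14 also had the lowest correlation with MTARC2 after WSD, -0.522. It was highest in WSD 16, in which the median of the 100 genes was lowest.

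None of the genes was called for fragmentation class. With diet in the model, 0 of the 100 genes and 0 (0%) of 13184 genes were called between fragmented and non-fragmented blastocysts by edgeR, and 0 of the 100 and 430 in all had an unadjusted p-value under 0.05. The log2 fold change was below 0 in 20 of the 100, against 46.6% of all genes and 23.7% of the other 299 variable genes. DESeq2's Wald test called 0 of the 100 and 15 in all. The median level of the genes was 29.0 CPM in the 6 fragmented and 28.9 CPM in the 8 non-fragmented SCD blastocysts, and 7.44 CPM in the 9 fragmented and 5.53 CPM in the 8 non-fragmented WSD blastocysts. The term for a diet effect that differs between the classes also called 0 of the 100 and 0 (0%) of 13184 genes by edgeR, with 1 of the 100 and 434 genes in all at an unadjusted p-value under 0.05, and 0 in all by DESeq2. This term was below 0 in 12 of the 100, against 49.3% of all genes and 40.5% of the other variable genes, with a median of 0.63 over the 100. The 100 genes vary together, so these shares do not count independent genes, and they are given without a test.

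Lists of cell type markers were compared beside the 100 genes, since a whole blastocyst holds several cell types. Of 20 trophectoderm markers, 16 were tested, all 16 had a log2 fold change below 0 after WSD, and 2 were called lower, DLX3 (-1.15 ± 0.32, SE; edgeR, adjusted p = 0.0498) and HAND1 (-2.97 ± 0.72, SE; edgeR, adjusted p = 0.0300). The summed level of the list had a median of 11755 CPM after SCD (3956 to 14854) and 4885 CPM after WSD (1722 to 19196), and the most abundant gene of the list was KRT18 with medians of 7040 and 3674 CPM. The study itself names HAND1 from these samples, and GATA2 is the one gene that this list shares with the 100. Of 12 hypoblast markers, 11 were tested, 0 were called, and 5 of them, GATA4, FOXA2, COL4A1, COL4A2 and FN1, are among the 100. The log2 fold changes were below 0 in these 5 and in the other 6, but the median of the other 6 was -0.37, and GATA6 (-0.02 ± 0.18, SE) and PDGFRA (-0.05 ± 0.09, SE) were close to 0. The summed level of the hypoblast list had a median of 3591 CPM after SCD (875 to 4969) and 1646 CPM after WSD (706 to 5528), led by APOA1 with medians of 1539 and 511 CPM. Over the WSD blastocysts, 13 of the 15 trophectoderm markers outside the 100 had a positive Spearman correlation with the median level of the 100 (median 0.745, n = 17). Among them were KRT19 (0.846), HAND1 (0.811), CDX2 (0.809) and KRT18 (0.797), and the 2 negative ones were SLC7A2 (-0.392) and TFAP2A (-0.017). Of the hypoblast markers outside the 100, 5 of 6 were positive (median 0.409), and GATA6 was negative (-0.260). The epiblast and the oocyte and cleavage stage lists were mixed: of the 12 tested epiblast markers 7 were positive (median 0.156), from POU5F1 at -0.779 to NODAL at 0.729 and ETV4 at 0.833, and of the 8 tested oocyte and cleavage stage markers 4 were positive (median -0.014, from -0.870 for DPPA3 to 0.398 for ZSCAN4). All 12 genes of mitochondrial translation and import were negative (median -0.580). These correlations are a description, and the matching share over all genes was not computed, so the counts cannot be judged against it. The median level of the 100 also moved with the number of detected genes after WSD (Spearman correlation 0.676, n = 17). The part of cell composition in the levels of the 100 genes was not tested.

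The other lists did not share genes with the 100. Of 15 epiblast markers, 12 were found by symbol and tested, and SOX2, ARGFX and IFITM1 were not found. Of these 12 epiblast markers, 6 had a log2 fold change below 0 and 0 were called, and their summed level had medians of 1429 CPM after SCD (1098 to 2468) and 1931 CPM after WSD (943 to 3242), led by POU5F1 with medians of 415 and 700 CPM. Of 13 oocyte and cleavage stage markers, 11 were found by symbol and 8 were tested. Of these 8, 5 had a log2 fold change below 0 and 0 were called. The summed level of the 11 had medians of 682 CPM (411 to 1296) and 1132 CPM (446 to 2070), led by DPPA3 with medians of 560 and 899 CPM. Cumulus cells surround the oocyte and could be carried over. Of 8 cumulus markers, 2 passed the filter and 0 were called, and 3 were under 1 CPM in every blastocyst. The summed level had medians of 42.3 CPM after SCD (31.3 to 109) and 43.7 CPM after WSD (30.2 to 92.6). It was led by STAR with medians of 36.9 and 43.3 CPM. HAS2, the other tested marker, had medians of 3.17 and 0.734 CPM, and reached 16.4 CPM after SCD. Its log2 fold change of -2.09 ± 0.61 did not pass (SE; edgeR, adjusted p = 0.0542). Of 12 genes of mitochondrial translation and import, which the study chose on these samples, 2 were called higher after WSD, TOMM40 (0.51 ± 0.14, SE; edgeR, adjusted p = 0.0458) and MRPL45 (0.54 ± 0.14, SE; edgeR, adjusted p = 0.0431), and all 12 had a log2 fold change above 0.

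Sequence features were compared through the RefSeq annotation of Mmul_10, in which 98 of the 100 genes were found by symbol. The median GC content of the longest transcript was 56.7% for these genes and 49.4% for all genes tested with a value, and the median transcript length was 4882 and 3249 bases. The share of counts on genes with at least 57.7% GC stood apart in SCD 8 (29.2%) and WSD 4 (26.6%), and was 16.7% to 22.1% in the others. The GC content may not be independent of the choice, which was not tested. Over the SCD blastocysts, MTARC2 was lower where this share was higher (Spearman correlation -0.640, n = 14, and -0.549 without SCD 8, which had the highest share and the lowest MTARC2). The median level of the 100 genes had a correlation of 0.398 with this share after SCD (0.429 without SCD 8). Over WSD the correlation with this share was 0.044 for MTARC2 and 0.196 for the median level (n = 17). Without SCD 8 and WSD 4, 5 of the 100 genes were called lower after WSD. In a window from 250 bases before to 50 bases after the start of each gene, the motif GATAA, the core of GATA factor sites, was found on either strand in 13.3% of the genes and in 17.1% of all genes tested, and the GC box GGGCGG in 63.3% and 61.9%. Over all 20757 windows of protein-coding genes, the shares were 21.7% and 48.4%. A match says only that these letters are present, and neither share was tested.

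The genes lay on 21 chromosomes, and 9 pairs lay within 1000000 bases of each other. The closest pairs were COL4A1 with COL4A2 and APBB1 with SMPD1. COL4A1 (chr17:91595188-91748807, minus strand) and COL4A2 (chr17:91748923-91949867, plus strand) start head to head, and their levels had a Spearman correlation of 0.973 over the 17 WSD blastocysts. APBB1 and SMPD1 on chromosome 14 lie 126 bases apart, and their Spearman correlation over WSD was 0.877. Where neighbouring genes overlap, their reads could not be told apart by strand. The 117 bases between the annotated starts of the collagen IV genes are shown because both genes are among the 100 and are read outward from this stretch (RefSeq, Mmul_10, chr17:91748807-91748923, plus strand, 77.8% GC, with the 1 GC box in capitals):
COL4A1 and COL4A2 shared start: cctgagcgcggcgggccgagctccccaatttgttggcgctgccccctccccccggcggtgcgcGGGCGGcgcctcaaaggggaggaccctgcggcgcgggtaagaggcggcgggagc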

How the data were processed

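RNA of single blastocysts was copied into cDNA with an amplification kit for very small inputs, and the reads carry no molecular identifiers. Trimmomatic 0.39 and STAR 2.7.0 were run by the authors on Mmul_10 with an Ensembl annotation, and the deposited values are whole-number counts per gene, neither normalized nor pooled. STAR counts only reads that align to 1 place, and which of its strand columns was kept is not given in the sources used here. All columns of the table matched a labelled blastocyst.

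CPM was computed from the column totals. The rule took genes with an identifier number under 50000 and at least 10 CPM in at least 5 of 31 blastocysts, left out the 200 with the highest median CPM, and went on as described. The members, role groups and marker lists were chosen with earlier results of these data known. Tests across genes used edgeR 4.0.16 in R 4.3.3 (quasi-likelihood F test, legacy = TRUE, robust = FALSE, TMM scaling, filterByExpr by diet, which kept genes with about 0.535 CPM or more in 13 blastocysts), with DESeq2 1.42.0 as an alternative, and p-values were adjusted by the Benjamini-Hochberg method over all genes tested. Approximate standard errors were obtained by dividing each log2 fold change by √F. Correlations were computed in Python 3.11.15. The tests across genes were first tested on simulated counts. Symbols were paired with 24173 of the 35395 identifiers and with 99 of the 100 members.

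The genes given by name were the 10 with the lowest correlation after SCD, the 5 with the highest mean CPM (not corrected for length: GATA2, NID2, SERPINH1, GSTP1 and PTPRF), the 5 largest called differences in each direction, the 5 smallest p-values against MTARC2 in WSD, and the genes at the limit of the rule. Other genes were named after their values were seen. Alternatives were other scalings, filters, covariates and test forms, the replicate number as a block, other forms of the rule, and each blastocyst left out. A covariate for the share of counts on GC-rich genes, and leaving out SCD 8 together with WSD 4 or SCD 8 together with the blastocyst SCD 3, came after the data were seen.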

Additional observations from a re-analysis of the deposited data

Results flagged for a closer look

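In the non-fragmented SCD class (n = 8), SCD 8 had 29.2% (29.1825) of its counts on genes with at least 57.7% GC, and the nearest of the other blastocysts had 20.4%. It was flagged because it lay far from the others of its class relative to their whole range. Chance flags about 1 in 20 groups, and 1 of 16 groups tested was flagged, over the median level of the 100 genes, MTARC2, the GC share and the number of detected genes in each diet and fragmentation class. SCD 8 had the lowest MTARC2 level of the SCD blastocysts, 5.18 CPM, and a median level of the 100 genes of 34.5 CPM.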

How the results depend on the processing

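The number of genes called lower after WSD, 11 of 100, was 30 with DESeq2's Wald test, 37 with legacy = FALSE, 29 with no filter, 69 (68 lower and 1 higher) at an unadjusted p-value, 6 and 0 with covariates for log10 library size and for detected genes, and 5 without SCD 8 and WSD 4. RLE scaling gave 12, a filter of 1 CPM in 14 blastocysts 14, robust = TRUE 10, fragmentation class as a covariate 11 and the GC share as a covariate 15. With each blastocyst left out in turn, it was 0 to 26. Lower calls over all genes moved as well, from 118 in the main fit. They were 477 with DESeq2's Wald test, 533 with legacy = FALSE, 1777 with no filter and 203 with the GC share. With each blastocyst left out, they ran from 24 without SCD 10 to 315 without SCD 14.

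With the replicate number as a block (replicate block), 0 of the 100 were called, and 7 genes in all, with a median log2 fold change of the 100 of -1.84 (-1.24 without the block), 95 below 0 and a smallest adjusted p-value among them of 0.0582 by edgeR. The labels do not say whether blastocysts of the same number share a mother. Over 13 such pairs, the deviations from the diet means had a mean correlation of 0.0234 (-0.419 to 0.262), with 4 pairs over 0.1. These values cannot exclude shared mothers, because single blastocysts also differ within a mother.

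The count against MTARC2 in WSD was 0 under each alternative except the unadjusted p-value (15), and 0 without each WSD blastocyst. The counts for fragmentation and for the diet by fragmentation term were 0 under each alternative with an adjusted p-value and without each blastocyst, and at an unadjusted p-value they were 0 and 1.

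The 11 genes with a negative correlation in WSD became 77 when partial on detected genes, 40 without WSD 7 and WSD 8, and 7 to 27 with each WSD blastocyst left out. They were 9 with Pearson correlation, 10 with TMM-scaled CPM and 12 without WSD 4. Of the 100 genes of the rule, 61 were shared with Pearson correlation, 91 with TMM-scaled CPM, 87 and 78 with pseudocounts of 0.1 and 5 for the SD, 64 without SCD 8 and SCD 3, and 70 to 89 with each SCD blastocyst left out.

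Of the named genes' diet log2 fold changes, that of NRG1 (-0.14) changed sign with detected genes (0.13) or the GC share (0.071) as a covariate, without SCD 8 and WSD 4 (0.13) and without SCD 8 (0.094, the highest of its range down to -0.43 with each blastocyst left out), and that of COL6A1 (0.12) without WSD 2 (-0.062, the lowest of a range up to 0.25). In the other comparisons of named genes with an alternative, 1530 stayed in direction and on their side of the threshold, 223 were no longer called and 48 became called. The slopes of the 5 genes named against MTARC2 kept their direction in 145 of 145 comparisons. As none of them was called in the main fit or in these comparisons, their side of the threshold says nothing about stability. The cause of these changes was not tested. Levels under about 1 CPM rest on few counts, and the female of origin was not used, so p-values measure the spread between blastocysts.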
